A study of Drosophila melanogaster with 16 samples.

Results

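The 7 transcripts examined, of the 16637 on the array, are listed for the mitochondrial ATP synthase but do not cover all its genes. To them belong 56 of the 132999 gene probes. They are ATPsyn-gamma (FBtr0085539), Oscp (FBtr0083064), ATPsyn-Cf6 (FBtr0084432), CG3321 (FBtr0082931, subunit e), CG4692 (FBtr0072339, subunit f), ATPsynG (FBtr0080167, subunit g) and FBtr0076405, which was listed as ATPsyn-beta. The members were picked by name among genes already known from these data to be lower in old hearts, so their difference between ages is given below as a description, without a test. Cardiac tubes, the tubular hearts of the fly, were dissected from males of an isogenic w1118, Canton S line at 10 or 40 days of age. There were 4 biological replicates per age, named A to D, each a pool of 10 tubes, and no other treatment or allele separated the groups. RNA was amplified, labelled with Cy3 and Cy5, and hybridized in pairs of 1 young and 1 old sample on 8 arrays. By the labels, the dyes were swapped between the 2 arrays of a replicate letter. Such bulk samples cannot separate fewer cells of a type from less RNA per cell.

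ATP synthase sits in the inner mitochondrial membrane and uses the proton gradient built by the respiratory chain to make ATP. Its soluble F1 head carries the catalytic sites on beta subunits and is entered by the rotating central stalk, of which gamma is the main part. The Fo sector conducts protons through the membrane, and the peripheral stalk, which includes OSCP and F6, holds the head still against the rotor. Subunits e, f and g are small Fo proteins, and in yeast e and g join the enzyme into dimers that bend the cristae. Heart muscle, which contracts without rest, depends heavily on this enzyme.

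The only member for which a designed sequence was at hand is ATPsyn-Cf6, on chromosome arm 3R, the coupling factor of the peripheral stalk and the member with the largest mean difference between ages. The study's quantitative PCR primers for it are shown, 20 bases each, in lower case and 5′ to 3′. They name the gene of the study's PCR and were not aligned to the transcript or its probes on the array.
ATPsyn-Cf6 forward: tccagttccccgatgttaag
ATPsyn-Cf6 reverse: cgaatcgcttgttgttttcc

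The name of FBtr0076405 was not borne out. Of 1114 entries in the study's listing of age-dependent genes, 1042 were tied to a single transcript by their values, and the other 6 members were among them. Their entries corresponded to all 8 probes for ATPsyn-Cf6 and ATPsynG, to 7 for CG3321, to 4 for Oscp and to 1 each for ATPsyn-gamma and CG4692, while the values below use all 8. The entry for ATPsyn-beta matched no single transcript. Over the 24 probes of FBtr0076405, FBtr0076406 and FBtr0089186, 1 of 16777215 combinations gave it, and that combination holds 1 of the 8 probes of FBtr0076405, 7 of those of FBtr0076406 and 1 of those of FBtr0089186. RefSeq Release 6 lists the name ATPsynbeta for 2 genes, ATPsynbeta itself on chromosome 4 and ATPsynB, a peripheral stalk subunit gene, on 3L. The transcript is therefore called by its identifier below. It was kept with gamma in the F1 group, as listed, but may belong to the peripheral stalk, the other side of the comparison of subunit groups, which is therefore also given without it.

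The arrays were read in 2 forms. The scanner intensities gave a log2 ratio of 40 over 10 days for each array and, after averaging the 2 dye-swapped arrays, for each replicate letter. The authors' normalized intensities gave a log2 level in each of the 8 samples. In 8 of the 16 columns these normalized values followed another scanner channel of the same age and dye than the one their label names. The mean difference between ages uses every array once and is the same under either assignment, whereas the spread over replicate letters is not. By the normalized values, the 2 arrays of a letter carried the same young sample but 2 different old ones. Each old sample was then shared by 2 letters, so the SDs and the test over letters do not rest on independent pairs. Ratios below go by the letters of the labels, and levels by the replicates of the normalized values. By that assignment, the ratio of a letter is not the difference between the levels of the same replicate. In each channel 22.1% to 29.7% of gene probes exceeded the 95th percentile of the random controls, and none of the 23 heart and muscle marker genes was tied to a transcript, so the tissue label was not checked against them.

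All 7 transcripts had lower mean levels at 40 than at 10 days. Their mean log2 ratios lay between -1.06 and -0.60, with a median of -0.82, which are levels 1.51 to 2.08 times lower in old hearts, and the median of all transcripts was 0.01. Of the 28 ratios by replicate letter 27 were below 0, and of the 56 ratios by single array 53 were. For 6 of the 7 members all 4 letters were below 0, as they were for 11.5% of all transcripts, and for 4 of the 7 all 8 arrays were, against 3.7% of all transcripts. In limma's moderated test with Benjamini-Hochberg adjustment over all transcripts, 0.0421% of transcripts were lower at an adjusted p under 0.01 and none of the 7 was among them. At 0.05 it was 0.198%, with 2 members, CG3321 and ATPsynG. With the normalized levels of 4 samples against 4, 0.102% of transcripts were lower at 0.05 and again none of the 7 was among them. Because this contrast chose the members, nothing is read from these counts.

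**Figure D1:**
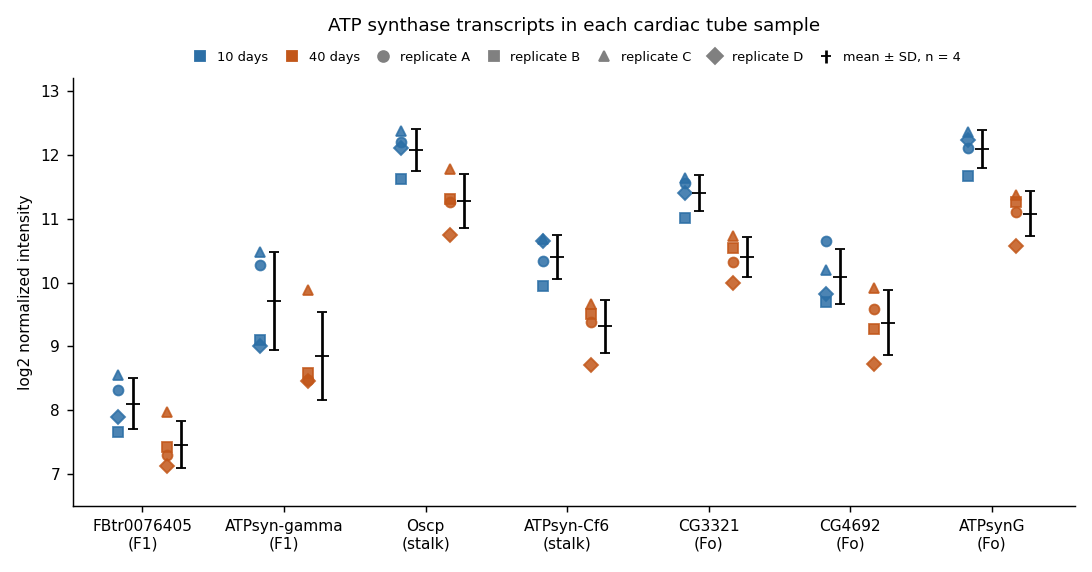
Log2 normalized intensity (y axis) of the 7 transcripts (x axis, with the part of the enzyme; FBtr0076405 is placed in F1 by its listed name) in each of 4 samples at 10 days and 4 at 40 days. Symbols stand for replicates and bars for the mean ± SD; the 2 ages do not overlap for ATPsyn-Cf6, CG3321 and ATPsynG, and 10-day replicate B and 40-day replicate D are low for most transcripts.

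The Fo membrane members are described first, then the stalk and F1. For ATPsynG, subunit g, the log2 levels at 10 days were 12.11, 11.67, 12.35 and 12.23 in replicates A to D, and at 40 days 11.10, 11.25, 11.36 and 10.57. The lowest young sample, B, still lay 0.30 above the highest old one, C, and D was the lowest old sample. The log2 ratios of 40 over 10 days in letters A to D were -1.01, -0.90, -0.73 and -1.37, with an SD of 0.27, and their mean puts the level at 40 days at 49.9% of that at 10 days.

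CG3321, subunit e, the partner of g in the yeast dimer, had a similar record. Its log2 levels were 11.56, 11.00, 11.63 and 11.40 in replicates A to D at 10 days and 10.32, 10.53, 10.73 and 10.00 at 40 days. Here too B was the lowest young and C the highest old sample, and they stood 0.27 apart without overlap. Its log2 ratio of -0.99 ± 0.26 (SD, n = 4) had the smallest SD of the 7 members and amounts to 50.5% of the young level.

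CG4692, subunit f, differed less between ages. At 10 days its log2 levels were 10.65, 9.70, 10.20 and 9.82 in replicates A to D, and at 40 days 9.58, 9.27, 9.92 and 8.73. The groups overlapped, as old replicate C lay above young replicates B and D. The log2 ratio was -0.70 ± 0.36 (SD, n = 4), and letter A, at -1.19, was the farthest below 0.

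ATPsyn-Cf6, the coupling factor F6, had log2 levels of 10.34, 9.94, 10.68 and 10.65 in replicates A to D at 10 days and of 9.39, 9.51, 9.66 and 8.71 at 40 days. All old samples lay below all young ones, with a gap of 0.28. The log2 ratio of -1.06 ± 0.34 (SD, n = 4) ran from -0.73 in letter C to -1.53 in letter D, and its mean corresponds to 48.1% of the young level.

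Oscp links the top of the F1 head to the peripheral stalk. Its log2 levels were 12.20, 11.62, 12.37 and 12.10 in replicates A to D at 10 days and 11.25, 11.30, 11.78 and 10.75 at 40 days. Only old replicate C crossed into the young range, by 0.16 above young replicate B. The log2 ratio was -0.79 ± 0.27 (SD, n = 4), a level of 57.7% of that at 10 days.

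The central stalk gene ATPsyn-gamma varied most within an age. Its log2 levels at 10 days were 10.27, 9.10, 10.48 and 9.00 in replicates A to D, and at 40 days 8.47, 8.58, 9.88 and 8.46. Young replicates A and C stood apart from B and D, and old replicate C lay among the young samples while the other 3 old samples were nearly equal. The range within an age was 1.47 at 10 and 1.42 at 40 days, against 0.62 and 0.73 for CG3321. The log2 ratios were -1.73, -1.17, 0.11 and -0.47 in letters A to D, which gave a mean of -0.82 with an SD of 0.80, close to the mean itself. By the normalized values, letter C set young replicate B against old replicates C and D.

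FBtr0076405 had log2 levels of 8.32, 7.66, 8.55 and 7.90 in replicates A to D at 10 days and of 7.31, 7.43, 7.98 and 7.13 at 40 days. The ages overlapped, as old replicate C lay above young replicates B and D. Its log2 ratio of -0.60 ± 0.39 (SD, n = 4) was the closest to 0 of the 7 members, with -0.06 in letter C. The other identifiers that share the ATPsyn-beta entry gave larger mean differences, -1.01 ± 0.33 for FBtr0076406 and -0.92 ± 0.39 for FBtr0089186 (SD, n = 4 each). The levels of FBtr0076406 did not overlap between ages, while old replicate C of FBtr0089186, at 11.56, lay among the young samples.

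Non-overlap of the 2 ages, seen for 3 of the 7, was found in 2.24% of all transcripts. Without young replicate B it was 4 of 7 (2.95% of all transcripts) and without old replicate C all 7 (4.83%), and every overlap thus involved old replicate C. The median difference of the levels between ages was -0.86 with all samples, -1.07 without young replicate B and -1.11 without old replicate C. The same samples showed on the arrays. On 7 of the 8 arrays each of the 7 members was below 0, and on the remaining one, the array of letter C with old RNA in Cy5, only 4 were, with a median of -0.05 and a highest value of 0.65 for ATPsyn-gamma. By the authors' normalized values that array set young replicate B against old replicate C.

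**Figure D2:**
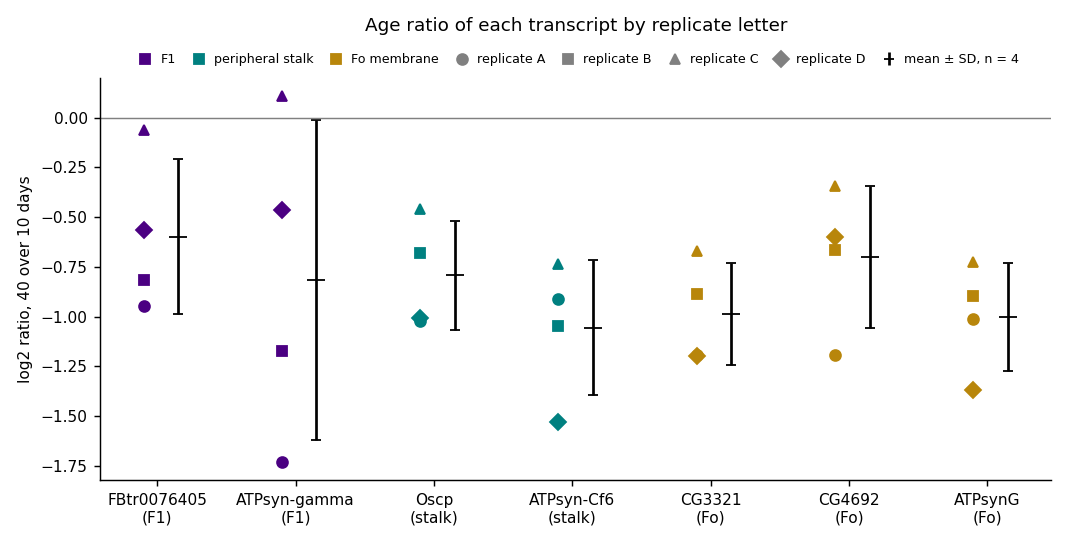
Log2 ratio of 40 over 10 days (y axis) of the 7 transcripts (x axis) by replicate letter, coloured by the part of the enzyme, with bars for the mean ± SD over 4 letters; FBtr0076405 is placed in F1 by its listed name. The 5 stalk and Fo transcripts lie below 0 in every letter, and ATPsyn-gamma runs from -1.73 to 0.11.

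F1 was then set against the stalk and Fo membrane subunits. The mean log2 ratio was -0.71 ± 0.59 over letters for the 2 F1 transcripts, -0.92 ± 0.28 for the 2 peripheral stalk transcripts and -0.90 ± 0.25 for the 3 Fo membrane transcripts (SD, n = 4). Per letter, F1 minus the other 5 was -0.27, -0.16, 0.61 and 0.63 in A to D. The mean of 0.20 was smaller than its SD of 0.48 and the sign differed between letters, so no difference beyond the spread of the replicates was detectable. With 2 transcripts in F1, 1 of them of uncertain name, the comparison rests on few genes. The stalk differed from the Fo membrane subunits by -0.03 ± 0.16 (SD, n = 4).

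Taken alone, ATPsyn-gamma differed from the other 5 by 0.09 ± 0.70, and FBtr0076405 by 0.31 ± 0.28, being above them in all 4 letters (SD, n = 4). With FBtr0089186 in its place the value was -0.01 ± 0.34, and with FBtr0076406 -0.10 ± 0.21. The mean of F1 minus the other 5 became 0.04 with FBtr0089186 and -0.0054 with FBtr0076406 as the second F1 transcript, and gamma minus the other 6 was 0.04 with FBtr0076405 moved to the stalk. The smaller difference of FBtr0076405 therefore did not extend to the other identifiers of the same entry. With dim probes, those above the controls in fewer than 8 of 16 channels, removed from all transcripts, the ratio of FBtr0076405 was -0.71 in place of -0.60. F1 minus the other 5 was then 0.13 in place of 0.20. The part of the dim probes of FBtr0076405 was not tested beyond these runs, and the values of its probes follow.

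All 56 probes had mean log2 ratios below 0, between -1.17 and -0.15, and 45 were below 0 in all 4 letters. Most were bright, since 43 probes exceeded the 95th percentile of the controls in all 16 channels and 52 in at least 8. The 8 probes of ATPsynG, all bright in every channel, agreed best, with ratios between -1.09 and -0.92. Those of ATPsyn-Cf6 ran from -1.16 to -0.92 and those of Oscp from -0.99 to -0.66. In CG3321 the probes at positions 1, 18 and 54 of the transcript gave -0.79, -0.51 and -0.86, and the 5 probes between positions 107 and 186 gave values from -1.17 to -1.09.

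FBtr0076405 was the member with the weakest signal. Its probe at position 39 exceeded the controls in 3 of 16 channels and had a log2 ratio of -0.15, and those at positions 82 and 93, which did so in 6 and 9 channels, had -0.39 and -0.46. The 5 probes between positions 185 and 215 lay between -0.84 and -0.70, close to the ratio of Oscp. In CG4692 the dimmest probe, at position 86, had -0.51 and the brightest, at position 252, had -0.92.

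**Figure D3:**
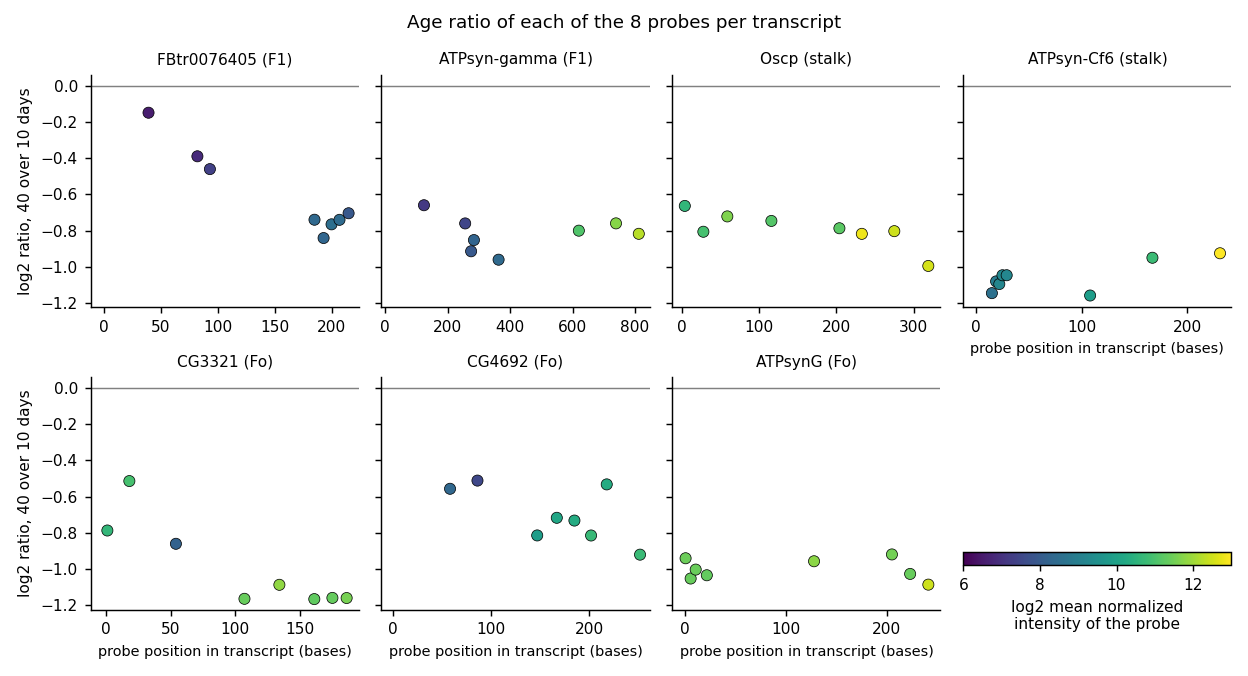
Log2 ratio of 40 over 10 days (y axis, mean of 8 arrays) of each of the 8 probes per transcript against the position of the probe in the transcript (x axis, bases), coloured by the log2 mean normalized intensity of the probe. All 56 probes lie below 0; the points nearest to 0 are the dim probes of FBtr0076405, the highest of them at -0.15.

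In ATPsyn-gamma the spread between replicates lay in some probes only. The 5 probes between positions 124 and 363 had log2 ratios of -2.08, -1.44, 0.45 and -0.24 in letters A to D, with a mean of -0.83 and an SD of 1.14. The 3 probes between positions 620 and 812 had -1.14, -0.73, -0.46 and -0.83, with a mean of -0.79 and an SD of 0.28. The means were thus alike, but the SD of the downstream probes was near that of the stalk and Fo transcripts. This split was chosen after the values were seen.

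The sample levels showed the same contrast. Over the 5 upstream probes the log2 levels at 10 days were 9.05, 7.49, 9.37 and 7.22 in replicates A to D, and at 40 days 6.79, 6.99, 8.74 and 7.01. Young replicates A and C and old replicate C were high, and the other 5 samples lay between 6.79 and 7.49, the 2 young ones above the 3 old ones. Over the 3 downstream probes they were 12.30, 11.78, 12.32 and 11.97 at 10 days and 11.28, 11.23, 11.78 and 10.87 at 40 days, where old replicate C and young replicate B were equal to 2 decimals and the other old samples lay below all young ones. The upstream probes exceeded the controls in 6 to 15 of 16 channels and the downstream probes in all 16. From the downstream probes alone, gamma minus the stalk and Fo transcripts was 0.11 ± 0.16 (SD, n = 4).

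**Figure D4:**
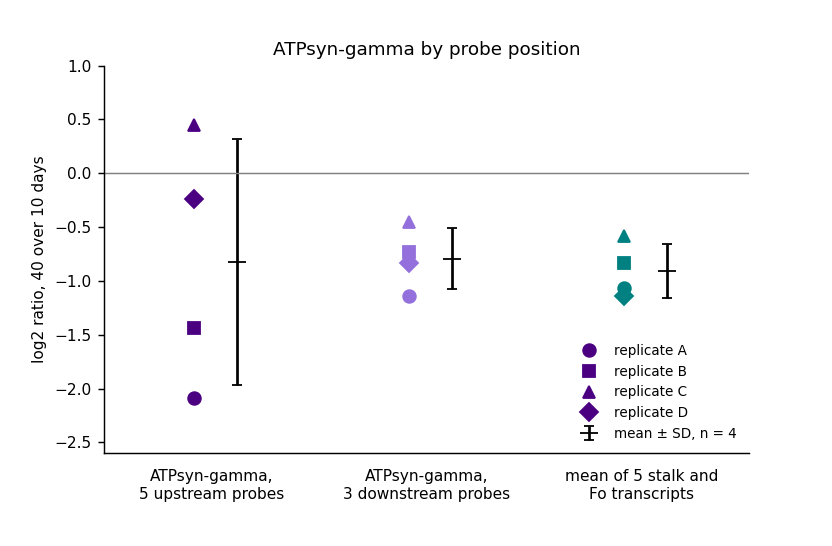
Log2 ratio of 40 over 10 days (y axis) by replicate letter for the 5 upstream probes of ATPsyn-gamma, its 3 downstream probes, and the mean of the 5 stalk and Fo transcripts, with bars for the mean ± SD over 4 letters. The upstream probes run from -2.08 to 0.45, and the downstream probes from -1.14 to -0.46.

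A measure other than the difference between ages is how the samples of 1 age differ among themselves. It is not free of the choice of members, since the study's calls weigh the age difference against the spread of the replicates. After the mean of each age was taken off, the 21 pairs of members had correlations between 0.47 and 0.99 over the 8 samples, with a median of 0.81. These are descriptions over few samples that share their arrays and normalization. The closest pair was ATPsyn-Cf6 and ATPsynG, with r = 0.99, and the least alike was ATPsyn-gamma and ATPsyn-Cf6, with r = 0.47. The downstream probes of gamma had r = 0.94 with the mean of the 5 stalk and Fo transcripts, and its upstream probes r = 0.66. FBtr0076405 had r = 0.96 with the mean of the other 6, whereas FBtr0076406 and FBtr0089186 had r = 0.54 and 0.64 with the mean of the 7.

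On average over the 7 members, young replicate B was low, old replicate C high and old replicate D low. The mean of the 7 deviated from its age's mean by 0.22, -0.46, 0.34 and -0.11 in young replicates A to D, and by -0.04, 0.02, 0.51 and -0.49 in the old ones. The percentage of probes above the controls was 24.8, 27.5, 29.6 and 23.4 in the young samples and 25.2, 24.1, 28.5 and 23.3 in the old ones, highest in replicate C of each age. Its correlation with the members' mean within ages was 0.54. The part of this signal depth in the pattern was not tested. Over the other 16630 transcripts the median correlation with the members' mean was -0.38, and 2.02% of them reached 0.9.

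Gene names were available for 1168 of the 16637 transcripts, all from the study's age calls. Of the 20 transcripts most like the members' mean, with r of at least 0.984, only 1 had a name. It was CG11015 (COX5B), a nuclear-encoded subunit of cytochrome c oxidase, with r = 0.99 over the 8 samples. The other named genes given here ranked below those 20. CG7580 (UQCR-Q), a subunit of the cytochrome bc1 complex, followed with 0.98. Their log2 ratios of 40 over 10 days were -0.93 ± 0.54 and -1.16 ± 0.57 (SD, n = 4). TpnC73F, a troponin C, had r = 0.97 and a log2 ratio of -0.68 ± 0.56, and CG6084 (Akr1B), an aldo-keto reductase, 0.96 and -0.86 ± 0.42. CG8317 (Lst, limostatin, a peptide hormone) had r = 0.98 although its log2 ratio was 0.82 ± 0.68, above 0 in all 4 letters. Among these named transcripts, high correlations within ages thus went with age ratios of either sign.

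**Figure D5:**
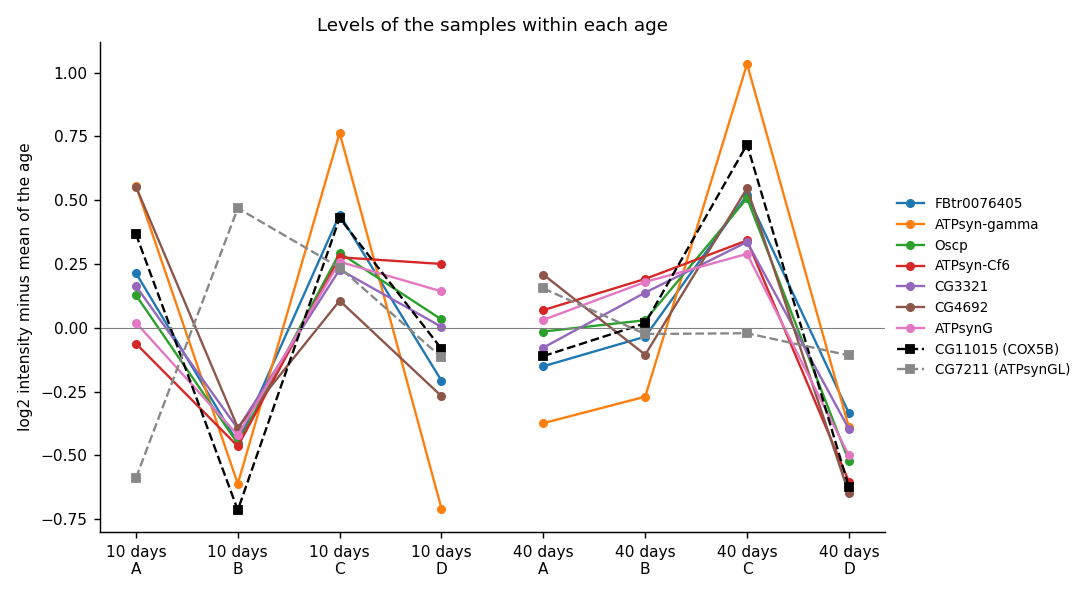
Log2 normalized intensity minus the mean of its own age (y axis) in the 8 samples (x axis) for the 7 transcripts (solid lines) and for CG11015 and CG7211 (dashed lines). The members and CG11015 are low in young replicate B and high in old replicate C, and CG7211 is highest in young replicate B.

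The other genes of the enzyme and its neighbours were taken from lists of which only part could be named, and all the names come from the study's own calls of age-dependent genes in these samples. Their directions are therefore no independent evidence. Of 21 ATP synthase genes listed, 7 were named, the 6 members and CG7211 (ATPsynGL), annotated as a second copy of the subunit g gene. Its log2 levels were 6.64, 7.70, 7.47 and 7.11 in replicates A to D at 10 days and 6.41, 6.23, 6.23 and 6.15 at 40 days. The old samples lay below the young ones, but young replicate A, high for the members, was the lowest young sample here. Its log2 ratio was -0.84 ± 0.42 (SD, n = 4), and its correlation with the members' mean within ages was -0.28.

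In the respiratory chain that feeds the enzyme with protons, all named genes had mean log2 ratios below 0. None of these 17 was called lower at an adjusted p under 0.05 by limma, in the ratios or in 4 samples against 4, and 16 had an unadjusted p under 0.05 in the ratios, as had 7.55% of all transcripts in that direction. Since their names came from calls on these samples, nothing is read from that count. For complex I these were 5 of 41 listed genes, with a median of -0.43, from CG2014 (ND-20L) at -0.72 and CG9350 (ND-B14.7) at -0.66 to CG11423 (ND-51L1) at -0.24. The single named gene of 8 for complex II, SdhA, the flavoprotein of succinate dehydrogenase, had -0.53. The 4 of 12 for complex III had a median of -0.91, from CG7580 at -1.16 and CG17856 (UQCR-14L) at -0.93 to CG4169 (UQCR-C2) at -0.36. Complex IV and cytochrome c had 7 of 23 named, with a median of -1.06, from CG18193 (COX7AL) at -1.93 and CG10396 (COX4L) at -1.77 to CG14077 (COX6AL2) at -0.38. All but 8 of the 17 are copies with an L in their symbol, among them ND-20L, ND-51L1, UQCR-14L, COX7AL, COX4L and COX6AL2. Within ages, the 10 such copies of chain and enzyme had a median r of 0.75 with the testis genes below. The 8 others had -0.05, and no value over all transcripts was computed. Some were dim, with log2 levels of 5.83 to 6.72 for CG11423 and 5.77 to 6.94 for CG14077. The source of the copies' RNA was not tested.

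Upstream of the chain, 3 of 16 tricarboxylic acid cycle genes were named, Nc73EF (Ogdh, 2-oxoglutarate dehydrogenase) at -0.83, CG33791 at -0.57 and CG5214 at -0.40. Of 5 genes for the carriers that bring ADP and phosphate to the enzyme, the phosphate carriers Mpcp and CG9090 were named, at -1.03 and -0.76. The V-type ATPase, a related rotary enzyme that pumps protons into vesicles at the cost of ATP, had 4 of 33 genes named and log2 ratios of both signs, -0.83 for Vha16-2, -0.11 for CG31030 and 0.91 for CG7625. The remaining named gene, Vha16, at 0.69, was called higher at an adjusted p under 0.05 by limma.

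Markers of other tissues that a dissected heart could carry were compared with the members. Of 30 testis genes 6 were named, 5 of them with log2 ratios below 0, and the median was -1.05. Their mean log2 level was 8.27, 9.33, 9.38 and 8.59 in young replicates A to D and 8.22, 7.64, 7.52 and 7.30 in the old ones, and thus lower in all old samples. Within ages its correlation with the mean of the 7 was -0.06, and with each of the 6 named members between -0.14 and 0.08. The fat body list had 2 of 11 genes named, and the mean of their log2 levels lay between 7.87 and 8.15 at 10 days and between 7.49 and 7.95 at 40 days. That mean covers genes of opposite sign, Lsp2, a larval storage protein, at a log2 ratio of -1.65 and Rfabg, a lipid carrier, at 1.22. For haemocytes, with 4 of 12 named, the range was 7.30 to 7.78 and 7.26 to 7.42, again over both signs. Here Hml, Pxn and CG8193 had log2 ratios of -1.43, -0.22 and -1.33 and CG16876 (NimC4) 2.06, and limma called Hml lower at an adjusted p under 0.05 and CG16876 higher at 0.01. The log2 level of the single nephrocyte gene of 6 was 7.76 to 9.39 at 10 and 7.74 to 8.86 at 40 days, and that of the single accessory gland gene of 11 was 8.17 to 10.2 and 6.38 to 8.14. None of the neuron or gut markers was named. The part of other tissues in the members' difference between ages was not tested beyond these values.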

How the data were processed

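The scanner files hold linear intensity per probe and channel, deposited by the authors as NimbleScan 2.5.26 wrote it, without normalization. The deposited value table holds linear intensity after the authors' lowess normalization. The genome build is not given in the sources used here. The labels name replicates A to D at each age, and the study's methods describe them as 4 biological replicates. Scanner intensities of 132999 gene probes and 4100 controls were corrected with normexp (offset 50) and loess-normalized within arrays in limma 3.58.1 (R 4.3.3). Controls had no weight in the loess fit and were left out afterwards. Ratios were turned to 40 over 10 days, averaged over the 2 arrays of a letter and over probes, and tested against 0 with Benjamini-Hochberg adjustment at 0.01. Levels are means of log2 values over dyes and probes of the value table. Other steps used numpy 2.4.6, pandas 2.3.3 and matplotlib 3.10.9 under Python 3.11.15. On simulated data for 40 against 10 days over 16637 transcripts, 56% of 100 transcripts changed by 1 and 82% of 100 changed by -2 on the log2 scale were recovered, with 2 false calls. The 4 simulated ratios were drawn independently. By the normalized values the real letters share old samples, so these figures do not carry over to the real test. The 4 samples per age and 8 arrays limit the precision.

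Names came from the study's listings, by probe or by value within 0.001%, and after shuffling, 1 entry matched. The joint search for the ATPsyn-beta entry used a stricter limit and had no shuffled control. Of 575 transcripts named both ways 554 had the same gene. The authors' fold changes served as keys only and are not reported. Members, lists, markers and tests were chosen with earlier results of these data known. Named in the text are the members, other named ATP synthase genes, the 5 named transcripts most like the members' mean, and per pathway list the 2 lowest and the highest ratio. Vha16 and the fat body and haemocyte genes fall outside that rule or were named after their values were seen, as were the copies with names ending in L in the closing observations. Results were recomputed with the value table, without the replicate block, with 8 arrays as independent, without background correction, with median centring or Aquantile, with medians over probes or dim probes removed, at a threshold of 0.05 and without each letter in turn. Further ones for FBtr0076405, ATPsyn-gamma and single samples were chosen after seeing the data.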

Additional observations from a re-analysis of the deposited data

Results flagged for a closer look

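The 40-day level of ATPsyn-gamma was flagged because 1 of its 4 samples lay far from the others. Replicate C, at 9.88 on the log2 scale, was separated from its nearest neighbour by 0.916 of the whole range of the group, above the limit of 0.829. Of 21 groups of 4 values tested, levels at each age and ratios by letter of the 7 transcripts, this was the 1 flag, and chance flags about 1 in 20 groups. The deviation lay in the 5 upstream probes, where replicate C stood at 8.74 and the other old samples at 6.79 to 7.01, more than in the 3 downstream probes, where it stood at 11.78 and the others at 10.87 to 11.28. The cause was not tested.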

How the results depend on the processing

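All 91 recomputed log2 ratios of the 7 transcripts, under 13 alternatives each, stayed below 0 and within 1 SD over letters of their value. Their median of -0.82 ranged from -1.09 to -0.72 when each letter was left out, the lowest without letter C, and was -0.90 without FBtr0076405. F1 minus the other 5 lay between 0.06 and 0.36 over left-out letters. In place of FBtr0076405, FBtr0089186 gave 0.04 and FBtr0076406 -0.0054, so the sign depends on which identifier stands for beta. The number of members without overlap between ages went from 3 to 7 without 40-day replicate C.

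Over all transcripts limma called 24 as higher and 7 as lower (adjusted p under 0.01), and these counts changed more. Leaving out any 1 letter gave 0 higher and 0 lower, and with all letters 2934 transcripts had an unadjusted p under 0.05. The counts were 222 and 33 at a threshold of 0.05, 266 and 46 with 8 arrays taken as independent, and 72 and 13 with dim probes removed, where 9389 transcripts were tested. They were 13 and 3 with the median of probes, 4 and 0 with the value table by letter, and 37 higher with median centring.

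In the normalized levels, samples of the same letter at the 2 ages were not alike in every letter. Deviations of same-letter samples from their age's mean correlated at -0.19, -0.03, 0.47 and 0.25 for A to D. Samples of different letters ranged from -0.42 to 0.42. These values go by the replicates of the normalized values, so the pairing in the ratios by letter was not tested. Without the replicate block, 4 samples against 4 gave 50 higher and 6 lower from the value table, and 45 higher and 5 lower from scanner channels assigned as in that table. The median of the members was then -0.86 and -0.82, F1 minus the other 5 was 0.17 and 0.20, and none of the 7 passed 0.05 in the value table. The 2 dyes of a 40-day sample were compared as deviations from the mean of channels of the same age and dye. They correlated at -0.36 to 0.34 under the labels' arrays and at 0.73 to 0.88 under those of the value table.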

Other observations

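The genes listed for the chain and the enzyme include 10 named ones whose RefSeq symbol marks a second copy by an L, namely ATPsynGL, COX4L, COX5BL, COX6AL2, COX7AL, COX7AL2, ND-20L, ND-24L, ND-51L1 and UQCR-14L. This set was picked out after its values were seen. Within ages, over 8 samples, their correlation with the members' mean had a median of -0.47 and ran from -0.93 to 0.64. Over the other 16630 transcripts the median was -0.38 and the 25th percentile -0.67. The median of the copies thus lay near that of transcripts in general. The 8 other named chain genes had a median of 0.88, between -0.83 and 0.99. With the mean of the 6 testis genes the copies correlated at a median of 0.75, from -0.19 to 0.94, while the 6 named members lay between -0.14 and 0.08. Exceptions were COX7AL2, with r = 0.64 with the members and -0.19 with the testis genes, and ND-51L1, with -0.93 and 0.17. COX5B and COX5BL, the 2 copies of 1 subunit, had r = 0.99 and 0.04 with the members and -0.16 and 0.94 with the testis genes. Both had age ratios below 0, -0.93 and -0.58. For the correlation with the testis genes, no value over all transcripts was computed. Signal level differed as well. CG34439 (ND-MWFE), not such a copy, was dim at log2 levels of 6.06 to 6.80 and had r = -0.83 with the members. The copy COX7AL2 was bright, at 9.12 to 12.51. The part of signal level in these correlations was not tested. The source of the copies' RNA was not tested.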
